A study of Homo sapiens with 60 samples.

Results

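The 9 genes described here encode the enzymes that make, recycle and use the 2 main thiol reductants of the cell, glutathione and thioredoxin, together with OSGIN1, an oxidative stress response gene. They were chosen by name as targets of the transcription factor NRF2: GCLC, GCLM, GSS, GSR, TXN, TXNRD1, PRDX1, SRXN1 and OSGIN1, 9 of the 60675 genes in the count table. All 9 passed the filter on low counts, which left 17368 genes. RNA was sequenced from A549 cells, a human lung adenocarcinoma line, after 24 h with 1 of 20 treatments, in 3 libraries each (60 in all). The labels give the following groups, all in the same line. Wortmannin, a phosphoinositide 3-kinase inhibitor that the study calls its positive control, was used at 10 µM. Water extracts of 6 medicinal herbs were each used at 20, 100 and 500 µg/mL: Polygalae Radix, Aucklandiae Radix, Zizyphi Semen, Schisandrae Fructus, Longan Arillus and Liriopis seu Ophiopogonis Tuber, here called by their first words. The series text adds that extracts that reached a set level of toxicity below the top dose were used at lower doses, while every label here gives the same 3, so the labelled doses may be nominal. Vehicle was DMSO, at 0.1% in the sample labels and 2% in the text on the series. No DMSO level is given for the treated groups.

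NRF2 (gene NFE2L2) is held at a low level by KEAP1, which hands it to a CUL3 ubiquitin ligase. When KEAP1 is oxidised or mutated, NRF2 accumulates, pairs with a small MAF protein and binds antioxidant response elements. A549 cells are known to carry a KEAP1 mutation that keeps NRF2 active. GCLC and GCLM are the catalytic and modifier subunits of glutamate-cysteine ligase, the rate-limiting step of glutathione synthesis, and GSS is the second enzyme of that pathway. GSR regenerates reduced glutathione with NADPH. TXN is thioredoxin, TXNRD1 is the selenium-containing cytosolic reductase that recharges it, PRDX1 is a peroxide-removing peroxiredoxin that thioredoxin reduces, and SRXN1 (sulfiredoxin) repairs overoxidised peroxiredoxins.

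The library names place the groups in 5 sets: Vehicle alone, Wortmannin alone, Liriopis with Schisandrae, Longan with Zizyphi, and Polygalae with Aucklandiae. A difference between a treated group and Vehicle therefore cannot be told apart from a difference between library sets, whereas dose trends and the contrast of Polygalae with Aucklandiae stay within 1 set. The labels do not say whether a group's 3 libraries are 3 separate cultures, and the p-values cover only the spread among these libraries, which may be technical. Library totals ran from 17.7 M to 30.6 M counts, with a median of 24.6 M. All 6 epithelial markers (EPCAM, KRT7, KRT8, KRT18, KRT19 and CDH1) averaged at least 1 CPM (counts scaled to library size), and their summed level ran from 7030 to 9790 CPM. The first Polygalae 20 µg/mL library and the third Liriopis 500 µg/mL library stood farthest from their own replicates, and results that rest on them are given with and without them.

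The antioxidant response element is commonly written with the core TGACNNNGC. The RefSeq promoter table (GRCh38.p14, 250 bases before to 50 after a gene's start) held 7 windows for 6 of the 9 genes. GSS, GSR and PRDX1 had none. The core, searched on both strands, was found in 3 of these windows, those of GCLM and TXNRD1, and in 13.3% of all 35116 windows of the table. These windows are shown because they carry the core. Both genes were lower in Wortmannin cells and higher in Polygalae cells at the top dose. The same held for TXN and SRXN1, whose windows held no core, and for GSR, which had no window. A link between the core and these changes was not tested. Capitals mark the core or its reverse complement. Positions are counted from the gene's start, with no base 0. The GCLM window, at chr1:93909381-93909680 on the minus strand, reads TGACTAAGC on the other strand at -34 to -26. The first TXNRD1 window, at chr12:104215529-104215828 on the plus strand, holds TGACTTCGC at -99 to -91 and TGACGGAGC on the other strand at -8 to 1. The second, at chr12:104286782-104287081, holds TGACAAAGC on the other strand at -102 to -94.

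GCLM: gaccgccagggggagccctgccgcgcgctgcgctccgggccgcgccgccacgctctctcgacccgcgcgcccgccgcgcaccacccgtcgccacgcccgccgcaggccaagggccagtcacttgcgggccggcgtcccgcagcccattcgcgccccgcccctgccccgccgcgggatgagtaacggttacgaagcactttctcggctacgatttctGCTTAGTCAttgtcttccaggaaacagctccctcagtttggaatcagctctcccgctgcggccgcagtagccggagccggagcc
TXNRD1 first start: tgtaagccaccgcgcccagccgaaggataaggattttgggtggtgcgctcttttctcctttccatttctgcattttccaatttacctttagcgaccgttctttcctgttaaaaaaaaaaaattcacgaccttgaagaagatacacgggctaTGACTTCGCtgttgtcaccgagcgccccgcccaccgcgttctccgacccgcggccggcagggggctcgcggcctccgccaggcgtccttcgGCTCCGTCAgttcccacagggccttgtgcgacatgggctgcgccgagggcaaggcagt
TXNRD1 second start: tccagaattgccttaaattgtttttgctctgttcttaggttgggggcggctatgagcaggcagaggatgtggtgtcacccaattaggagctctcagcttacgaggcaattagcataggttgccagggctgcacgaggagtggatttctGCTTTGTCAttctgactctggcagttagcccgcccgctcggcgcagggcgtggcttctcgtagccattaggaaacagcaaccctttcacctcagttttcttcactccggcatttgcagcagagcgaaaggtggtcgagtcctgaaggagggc

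The windows of GCLC, TXN, SRXN1 and OSGIN1 held no such core. The related AP-1 sequence TGACTCA occurred once, in the OSGIN1 window at -97 to -91, and in 4.95% of all windows. A match describes letters only, and the data hold no measure of NRF2 binding.

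In the files and the GENCODE release 29 annotation (GRCh38) the genes are protein coding. They are GCLC (ENSG00000001084, chr6:53497341-53616970), GCLM (ENSG00000023909, chr1:93885205-93909456), GSS (ENSG00000100983, chr20:34928433-34956027), GSR (ENSG00000104687), TXN (ENSG00000136810, chr9:110243811-110256640), TXNRD1 (ENSG00000198431, chr12:104215779-104350305), PRDX1 (ENSG00000117450, chr1:45511036-45523047), SRXN1 (ENSG00000271303, chr20:646615-653370) and OSGIN1 (ENSG00000140961, chr16:83948282-83966332). TXNRD1 and OSGIN1 lie on the plus strand and the others on the minus strand. RSEM shares reads among similar transcripts, so reads of processed pseudogene copies of TXN and PRDX1 could be split. Those copies averaged at most 1.2 counts, against 11470 for TXN and 21660 for PRDX1. EID3 and the processed pseudogene RPL18AP3 overlap TXNRD1 on the same strand and averaged 224 and 288 counts, against 50190 for TXNRD1. Whether the counting used strand is not given in the sources used here. Without strand, reads in the stretch that PRDX1 shares with its opposite-strand neighbour MMACHC (191 counts) could not be told apart.

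Without treatment these genes were among the more abundant transcripts of the line. Scaled by exon length, PRDX1 had 565 CPM per kilobase in Vehicle cells, TXN 391, TXNRD1 301, SRXN1 174 and GSR 112, all above the 98th percentile of the 17250 tested genes with a length. GCLM (41.5 CPM per kilobase), OSGIN1 (32.6) and GCLC (32.3) lay above the 93rd percentile. GSS, at 9.23 CPM per kilobase, lay at percentile 75.2. The thioredoxin and peroxiredoxin genes thus stood above the glutathione synthesis genes in level per length.

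**Figure D1:**
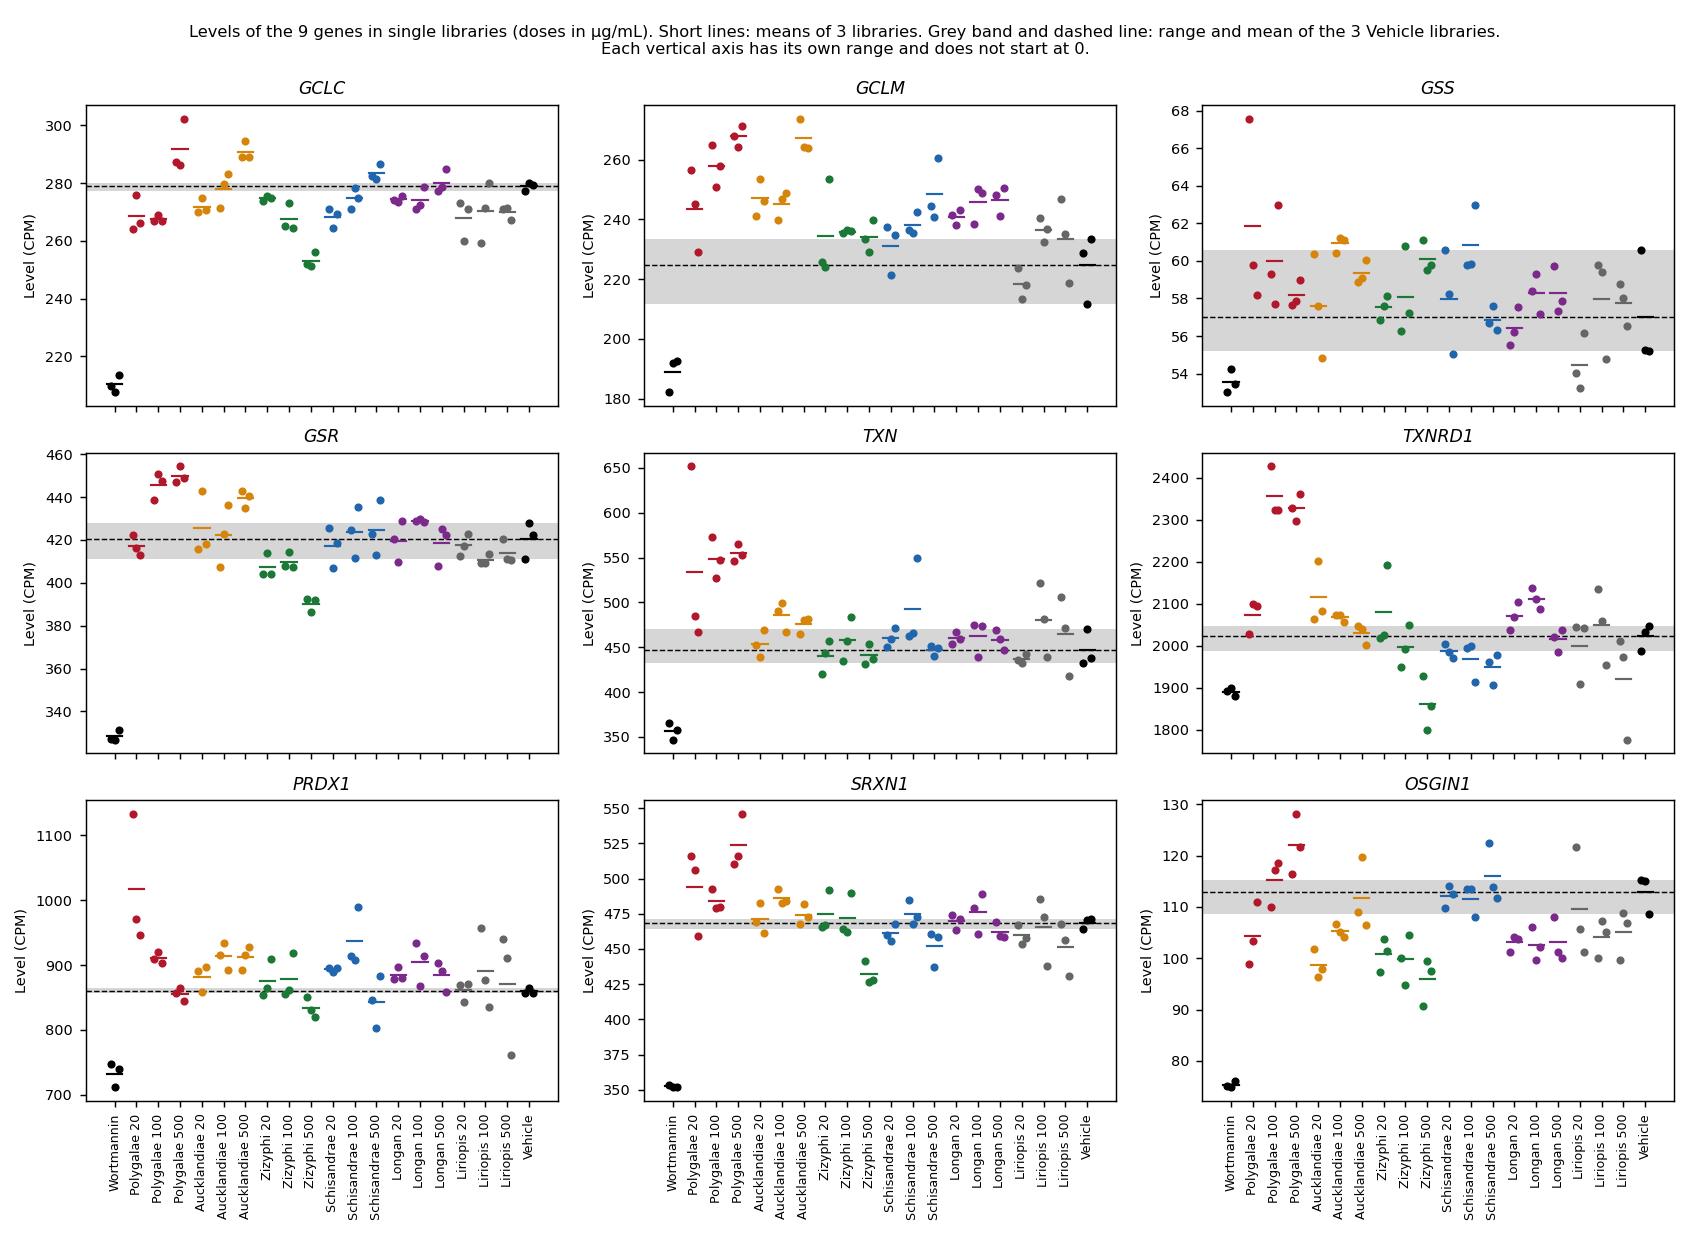
Level in CPM (vertical axis, own range for each gene, not starting at 0) of each of the 9 genes in every library of the 19 treated groups and Vehicle (horizontal axis, extract doses in µg/mL). Points are libraries, short lines are means of 3, and the grey band is the range of the 3 Vehicle libraries. The Wortmannin points lie below the Vehicle band in all 9 panels, a separation that was not counted over all tested genes. The Polygalae points reach the highest group mean in every panel.

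Across the 20 groups, the highest group mean was between 1.15-fold (GSS) and 1.62-fold (OSGIN1) of the lowest. Polygalae 500 µg/mL had the highest mean for GCLC, GCLM, GSR, TXN, SRXN1 and OSGIN1, Polygalae 100 µg/mL for TXNRD1, and Polygalae 20 µg/mL for GSS and PRDX1. Wortmannin had the lowest mean for 8 genes. TXNRD1 was the exception, with its lowest mean, 1861 CPM, in Zizyphi 500 µg/mL and Wortmannin next above it. In the order of group means, at most 3 of the 19 neighbouring pairs of groups had libraries that did not overlap (GCLC and GSR), and no pair did for GSS. The order of most neighbours is thus uncertain. Sorting places the most alike groups side by side, so their overlap is no test of a difference. The share of such pairs over all tested genes was not computed. Vehicle ranked 18 of 20 for GCLM but 4 for OSGIN1 and 5 for GCLC, counted from the highest, so most extract groups stood above Vehicle for the first and below it for the other two.

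Nearly the whole set was lower after wortmannin. In Wortmannin cells 8 of the 9 genes fell relative to Vehicle and none rose (edgeR quasi-likelihood test, 3 libraries a group, Benjamini-Hochberg adjusted over 17368 genes, p under 0.05), where 37.4% of all tested genes were called, 19.4% as lower and 18% as higher. The fall was steepest for OSGIN1, SRXN1 and GCLC and smallest for TXNRD1. The median log2 fold change was -0.33 over the 9 genes and 0.01 over all tested genes. In bulk RNA, fewer cells of a kind and less RNA per cell cannot be told apart.

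Among the glutathione synthesis genes, GCLC had 210, 208 and 214 CPM in the 3 Wortmannin libraries, against 277, 280 and 279 CPM in the Vehicle libraries. Its log2 fold change was -0.41 ± 0.03 (SE, adjusted p = 8.7e-20, edgeR), and the groups were far apart. GCLM had 182, 192 and 193 CPM in Wortmannin libraries, against 229, 212 and 234 CPM in Vehicle libraries, a log2 fold change of -0.25 ± 0.04 (adjusted p = 5.2e-07). Every Wortmannin library lay below every Vehicle library, though the Vehicle libraries spread over about as many CPM as separated the groups. GSS, the second enzyme of the pathway, had 53.0, 54.2 and 53.4 CPM in Wortmannin libraries, against 60.6, 55.3 and 55.2 CPM in Vehicle libraries. The groups did not overlap, but the first Vehicle library stood above the other two, and the log2 fold change of -0.09 ± 0.04 did not pass the test (adjusted p = 0.0868).

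GSR, which recycles glutathione, had 327, 327 and 331 CPM in Wortmannin libraries, against 411, 428 and 423 CPM in Vehicle libraries (log2 fold change -0.36 ± 0.03, adjusted p = 1.1e-16). Its fall was close in size to that of GCLC, and no library of either group approached the other group.

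In the thioredoxin pair, TXN fell further than its reductase on the log2 scale, a difference that was not tested. TXN had 366, 347 and 358 CPM in Wortmannin libraries, against 433, 470 and 438 CPM in Vehicle libraries, with a log2 fold change of -0.33 ± 0.07 (adjusted p = 0.00035). TXNRD1 had 1893, 1898 and 1880 CPM in Wortmannin libraries, against 1988, 2032 and 2047 CPM in Vehicle libraries. The groups did not overlap and the log2 fold change was -0.10 ± 0.03 (adjusted p = 0.0202). This call did not hold without the second Vehicle library (adjusted p = 0.0552), without the third (0.072), without the third Wortmannin library (0.0579), or with no filter on low counts (0.0626).

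The peroxiredoxin PRDX1 had 747, 711 and 739 CPM in Wortmannin libraries, against 857, 865 and 857 CPM in Vehicle libraries (log2 fold change -0.23 ± 0.05, adjusted p = 0.00017). SRXN1, its repair enzyme, had 353, 352 and 352 CPM in Wortmannin libraries, against 464, 471 and 472 CPM in Vehicle libraries (log2 fold change -0.41 ± 0.03, adjusted p = 3.1e-15). OSGIN1 had 75.1, 74.8 and 76.0 CPM in Wortmannin libraries, against 115, 115 and 109 CPM in Vehicle libraries (log2 fold change -0.58 ± 0.05, adjusted p = 4.4e-15). That is a fold of 0.667, the lowest of the 9, and none of these groups overlapped.

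**Figure D2:**
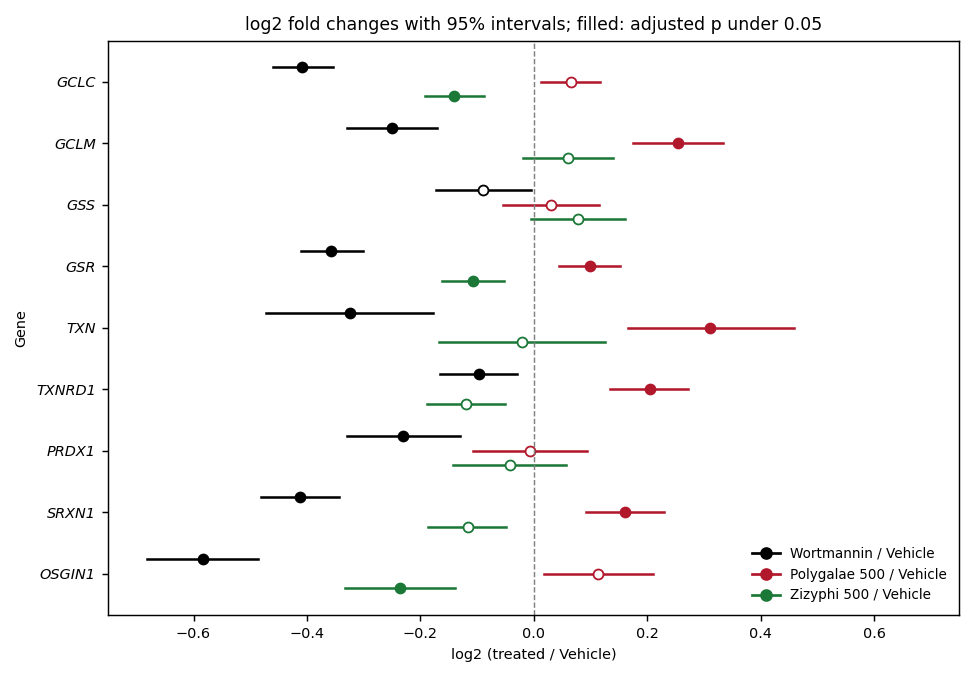
The log2 fold change from Vehicle (horizontal axis) of each gene (vertical axis) in Wortmannin, Polygalae 500 µg/mL and Zizyphi 500 µg/mL, with 95% intervals; filled points passed the test at adjusted p under 0.05. OSGIN1 under Wortmannin lies lowest at -0.58, and TXN under Polygalae lies highest at 0.31.

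Set against the mean of the 6 extract groups at 20 µg/mL in place of Vehicle, all 9 genes were lower in Wortmannin cells, GSS included (log2 fold change -0.11, adjusted p = 0.00458). The share of all tested genes called against that mean was not computed. The summed level of the 4 blood markers, of which CD68 alone averaged at least 1 CPM and none was at 0 throughout, was 16.5 to 19.7 CPM in Wortmannin libraries and 11.5 to 12.4 CPM in Vehicle libraries. The 4 endothelial markers, of which none reached an average of 1 CPM, summed to 0.34 to 0.488 CPM in Wortmannin libraries and 0.144 to 0.317 CPM in Vehicle libraries. The part of these markers in the result was not tested. Epithelial markers summed to 8530 to 8620 CPM in Wortmannin libraries and 8250 to 8630 CPM in Vehicle libraries.

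Part of the same set was higher after Polygalae at 500 µg/mL. In these cells 5 of the 9 genes rose relative to Vehicle and none fell: TXN, GCLM, TXNRD1, SRXN1 and GSR, where 19.9% of all tested genes were called, 10.4% as higher. All 5 changes were small, with folds of 1.07 to 1.24. The median log2 fold change was 0.11 over the 9 genes and 0.00 over all tested genes.

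The largest rise was that of TXN, with 546, 565 and 553 CPM in Polygalae 500 µg/mL libraries, against 433, 470 and 438 CPM in Vehicle libraries (log2 fold change 0.31 ± 0.07, adjusted p = 0.0012). TXNRD1 had 2328, 2298 and 2361 CPM in Polygalae 500 µg/mL libraries, against 1988, 2032 and 2047 CPM in Vehicle libraries (0.20 ± 0.03, adjusted p = 5.1e-06). Thioredoxin and its reductase thus both stood above every Vehicle library. GCLM had 268, 264 and 271 CPM in Polygalae 500 µg/mL libraries, against 229, 212 and 234 CPM in Vehicle libraries (0.25 ± 0.04, adjusted p = 9e-07). Its partner GCLC, at 287, 286 and 302 CPM in Polygalae 500 µg/mL libraries and 277, 280 and 279 CPM in Vehicle libraries, had a log2 fold change of 0.07 ± 0.03 that did not pass (adjusted p = 0.0684). GCLC passed in DESeq2 (adjusted p = 0.0376), without the 2 libraries that stood apart (0.0459) and against the mean of the 6 groups at 20 µg/mL (log2 fold change 0.11, adjusted p = 2.1e-05).

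SRXN1 had 510, 516 and 546 CPM in Polygalae 500 µg/mL libraries, against 464, 471 and 472 CPM in Vehicle libraries (log2 fold change 0.16 ± 0.03, adjusted p = 0.00027). GSR had 447, 454 and 449 CPM in Polygalae 500 µg/mL libraries, against 411, 428 and 423 CPM in Vehicle libraries (0.10 ± 0.03, adjusted p = 0.0055). Neither gene's groups overlapped, but the GSR call was lost without the first Vehicle library (adjusted p = 0.0521) and with no filter on low counts (0.252). OSGIN1 had 117, 128 and 122 CPM in Polygalae 500 µg/mL libraries and 115, 115 and 109 CPM in Vehicle libraries, and its log2 fold change of 0.11 ± 0.05 did not pass (adjusted p = 0.0892). It passed without the first Polygalae 500 µg/mL library (adjusted p = 0.0486), in a fit of only the 6 libraries compared (0.0196) and against the mean of the 6 groups at 20 µg/mL (log2 fold change 0.22, adjusted p = 2.08e-06). Against that mean 7 of the 9 genes were higher and none lower, and the share of all tested genes called was not computed. PRDX1 (-0.01 ± 0.05, adjusted p = 0.947) and GSS (0.03 ± 0.04, adjusted p = 0.699) did not pass, with 95% intervals of -0.11 to 0.09 for PRDX1 and -0.06 to 0.11 for GSS.

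**Figure D3:**
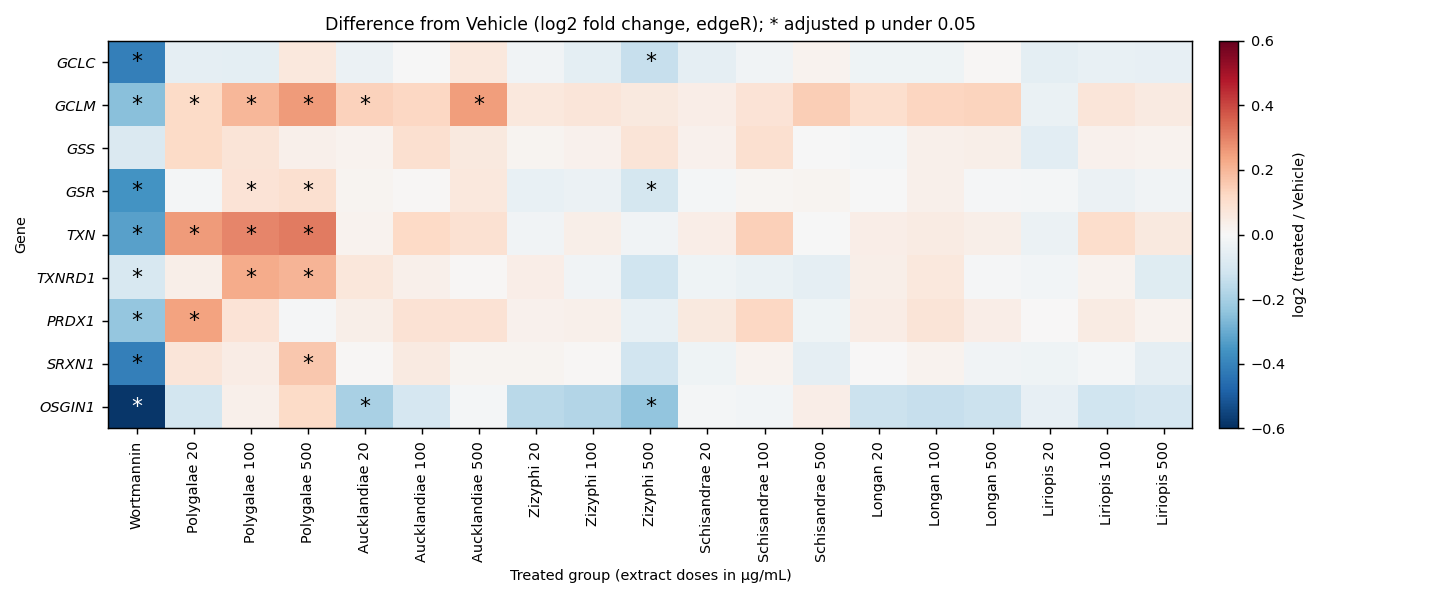
The log2 fold change from Vehicle (colour scale from -0.6 to 0.6) of each gene (rows) in each of the 19 treated groups (columns, extract doses in µg/mL); an asterisk marks adjusted p under 0.05. The calls lie in the Wortmannin, Polygalae and Aucklandiae columns and in Zizyphi 500 µg/mL, and the columns of Schisandrae, Longan and Liriopis hold none.

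The direct contrast of the groups with the most calls put all 9 genes lower in Wortmannin than in Polygalae 500 µg/mL cells, where 44% of all tested genes were called, 23.9% as lower. The log2 differences were -0.70 ± 0.05 for OSGIN1, -0.64 ± 0.07 for TXN, -0.57 ± 0.03 for SRXN1, -0.50 ± 0.04 for GCLM, -0.47 ± 0.03 for GCLC and -0.46 ± 0.03 for GSR. They were smaller for TXNRD1 (-0.30 ± 0.03), PRDX1 (-0.22 ± 0.05) and GSS (-0.12 ± 0.04), whose call was lost without the first Wortmannin library (adjusted p = 0.0579), without the third Polygalae 500 µg/mL library (0.0631) or with no filter on low counts (0.107). For all 9 genes, every Wortmannin library lay below every Polygalae 500 µg/mL library. How many of all tested genes did so was not counted. The 2 groups were picked as those with the most calls against Vehicle in these same data, so the count of 9 adds no independent support. They belong to different library sets.

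At the lower Polygalae doses fewer of the 9 genes were called, and not all were those called at 500 µg/mL. At 100 µg/mL, 4 genes rose (12.8% of all tested genes were called, 7.51% as higher): GCLM (log2 fold change 0.20), GSR (0.08), TXN (0.30) and TXNRD1 (0.22). GCLC had the opposite sign, -0.06 ± 0.03 with every Polygalae 100 µg/mL library below every Vehicle library; edgeR did not call it (adjusted p = 0.131) and DESeq2 did (0.0484). The other 4 genes, GSS (0.08), PRDX1 (0.08), SRXN1 (0.05) and OSGIN1 (0.03), did not pass. TXNRD1 had 2427, 2322 and 2322 CPM there, against 1988, 2032 and 2047 CPM in Vehicle libraries, and its mean of 2357 CPM was the highest of the 20 groups. The GSR call at 100 µg/mL was lost without the first (adjusted p = 0.167) or the third (0.0575) Vehicle library, without the second (0.109) or the third (0.0904) Polygalae 100 µg/mL library, and with no filter on low counts (0.431).

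At 20 µg/mL, 3 genes rose (12.1% of all tested genes were called, 6.59% as higher), and the first library was the highest of the group for each. TXN had 652, 485 and 467 CPM in Polygalae 20 µg/mL libraries, against 433, 470 and 438 CPM in Vehicle libraries (log2 fold change 0.26, adjusted p = 0.0154). PRDX1 had 1133, 971 and 947 CPM in Polygalae 20 µg/mL libraries, against 857, 865 and 857 CPM in Vehicle libraries (0.24, adjusted p = 0.00087). GCLM had 257, 245 and 229 CPM in Polygalae 20 µg/mL libraries, against 229, 212 and 234 CPM in Vehicle libraries (0.12, adjusted p = 0.0421). For TXN and GCLM the groups overlapped, while all 3 Polygalae 20 µg/mL libraries lay above Vehicle for PRDX1. Without the first library TXN (log2 fold change 0.09, adjusted p = 0.477) and GCLM (0.08, adjusted p = 0.32) did not pass. PRDX1 then had a log2 fold change of 0.16 and lay just short of the threshold (adjusted p = 0.0578), and it passed when the third Liriopis 500 µg/mL library was left out as well. In a fit of only the 6 libraries compared none of the 3 genes passed (adjusted p = 0.331 for PRDX1, 0.437 for TXN and 0.485 for GCLM). With no filter on low counts GCLM did not pass either (0.123). TXN also lost its call without the first (0.07) or the third (0.0592) Vehicle library, and GCLM without the first (0.0594) or the second (0.296) Vehicle library or the second Polygalae 20 µg/mL library (0.0797). Without 1 of the other libraries, further genes passed: GSS without the first Vehicle library (adjusted p = 0.0203), the second Polygalae 20 µg/mL library (0.0343) or the third (0.00839), and, without the third, SRXN1 (0.00806) as higher and OSGIN1 (0.0252) as lower.

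Within the 9 Polygalae libraries, 2 genes followed dose (5.03% of all tested genes did, 2.99% upward and 2.03% downward). OSGIN1 gained 0.11 ± 0.03 log2 units per 5-fold dose step (adjusted p = 0.0287), with 98.8, 103 and 111 CPM at 20 µg/mL, 110.0, 117 and 119 CPM at 100 µg/mL and 117, 128 and 122 CPM at 500 µg/mL. PRDX1 went the other way, by -0.13 ± 0.03 per step (adjusted p = 0.0371), with 1133, 971 and 947 CPM at 20 µg/mL, 910, 920 and 903 CPM at 100 µg/mL and 857, 864 and 844 CPM at 500 µg/mL. Its libraries at the 3 doses did not overlap, whereas those of OSGIN1 did. With all 60 libraries in the fit, GCLC (adjusted p = 0.000539), GCLM (0.00947), GSR (0.00244) and TXNRD1 (0.000204) followed dose as well, 6 genes in all. DESeq2 added GSR (0.0282) and TXNRD1 (0.0291), 4 in all, and with the replicate number as a block the PRDX1 slope did not pass (0.0537). The share of all tested genes that followed dose in these alternatives was not computed. The count was 0 to 4 when 1 library was left out. The OSGIN1 slope was lost without the second (adjusted p = 0.122) or the third (0.0813) Polygalae 500 µg/mL library or the second Polygalae 20 µg/mL library (0.0976). The PRDX1 slope was lost without any 1 of 7 libraries (adjusted p = 0.0511 to 0.116). Without the first Polygalae 20 µg/mL library, GCLM (slope 0.09, adjusted p = 0.00557) and TXN (0.10, adjusted p = 0.00852) passed as well.

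After Aucklandiae at 500 µg/mL 1 of the 9 genes rose, where 4.93% of all tested genes were called, 2.24% as higher. GCLM had 274, 264 and 264 CPM in Aucklandiae 500 µg/mL libraries, against 229, 212 and 234 CPM in Vehicle libraries (log2 fold change 0.25 ± 0.04, adjusted p = 1.2e-05). The groups did not overlap, and the fold of 1.19 equalled that under Polygalae at the same dose. Vehicle ranked 18 of 20 groups for GCLM, counted from the highest. Over 13 alternatives, with other references among them, the GCLM change was 0.182 to 0.280 under Aucklandiae and 0.184 to 0.283 under Polygalae. It passed in all of them. The other 8 log2 fold changes, from -0.01 for OSGIN1 to 0.09 for TXN, did not pass. Against the mean of the 6 groups at 20 µg/mL, GCLC (0.10, adjusted p = 0.000394) and GSR (0.07, adjusted p = 0.0272) passed too. At 100 µg/mL no gene passed (2.04% of all tested genes were called by edgeR). Unadjusted p was under 0.05 for 3 of the 9, and DESeq2 called 0.

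At 20 µg/mL, GCLM was higher and OSGIN1 lower (2.99% of all tested genes were called, 1.38% as higher and 1.61% as lower). OSGIN1 had 102, 96.3 and 97.9 CPM in Aucklandiae 20 µg/mL libraries, against 115, 115 and 109 CPM in Vehicle libraries (log2 fold change -0.19 ± 0.05, adjusted p = 0.0167). GCLM had 241, 254 and 246 CPM in Aucklandiae 20 µg/mL libraries, against 229, 212 and 234 CPM in Vehicle libraries (0.14 ± 0.04, adjusted p = 0.0396). Neither gene's groups overlapped, but both calls were lost without the first or the second Vehicle library or the second or the third Aucklandiae 20 µg/mL library, with adjusted p of 0.0662 to 0.0994 for OSGIN1 and 0.0687 to 0.319 for GCLM. The GCLM call was also lost with no filter on low counts (0.0707). Within the 9 Aucklandiae libraries, OSGIN1 was the 1 gene that followed dose, at 0.09 ± 0.02 per step (adjusted p = 0.0133; 0.967% of all tested genes did, 0.219% upward). That slope was lost without the second Aucklandiae 500 µg/mL library (adjusted p = 0.214) or the second (0.0607) or the third (0.0751) Aucklandiae 20 µg/mL library. GCLM passed without the second Aucklandiae 20 µg/mL library (slope 0.07, adjusted p = 0.0426).

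Polygalae and Aucklandiae share a library set, so at 500 µg/mL they can be compared without Vehicle. TXNRD1 (log2 difference 0.20 ± 0.03, adjusted p = 9.5e-06), SRXN1 (0.14 ± 0.03, adjusted p = 0.0013) and TXN (0.22 ± 0.07, adjusted p = 0.0301) were higher under Polygalae, where 15.2% of all tested genes were called, 8.2% as higher. TXNRD1 had 2328, 2298 and 2361 CPM in Polygalae libraries, against 2046, 2040 and 2002 CPM in Aucklandiae libraries, and no libraries of these 3 genes overlapped. The TXN call was lost when any 1 of the 6 libraries was left out (adjusted p = 0.0547 to 0.103). The glutathione genes did not pass, with 95% intervals of the log2 difference of -0.08 to 0.08 for GCLM, -0.05 to 0.06 for GCLC, -0.02 to 0.09 for GSR and -0.11 to 0.06 for GSS. PRDX1 had the opposite sign, -0.09 ± 0.05 with every Polygalae library below every Aucklandiae library, and did not pass (adjusted p = 0.238). It passed as lower without the 2 libraries that stood apart (0.0483) and in a fit of only the 6 libraries compared (0.0186). OSGIN1 (0.13 ± 0.05, adjusted p = 0.0676) passed without the first Polygalae 500 µg/mL library (0.037) or the second Aucklandiae 500 µg/mL library (0.0131).

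**Figure D4:**
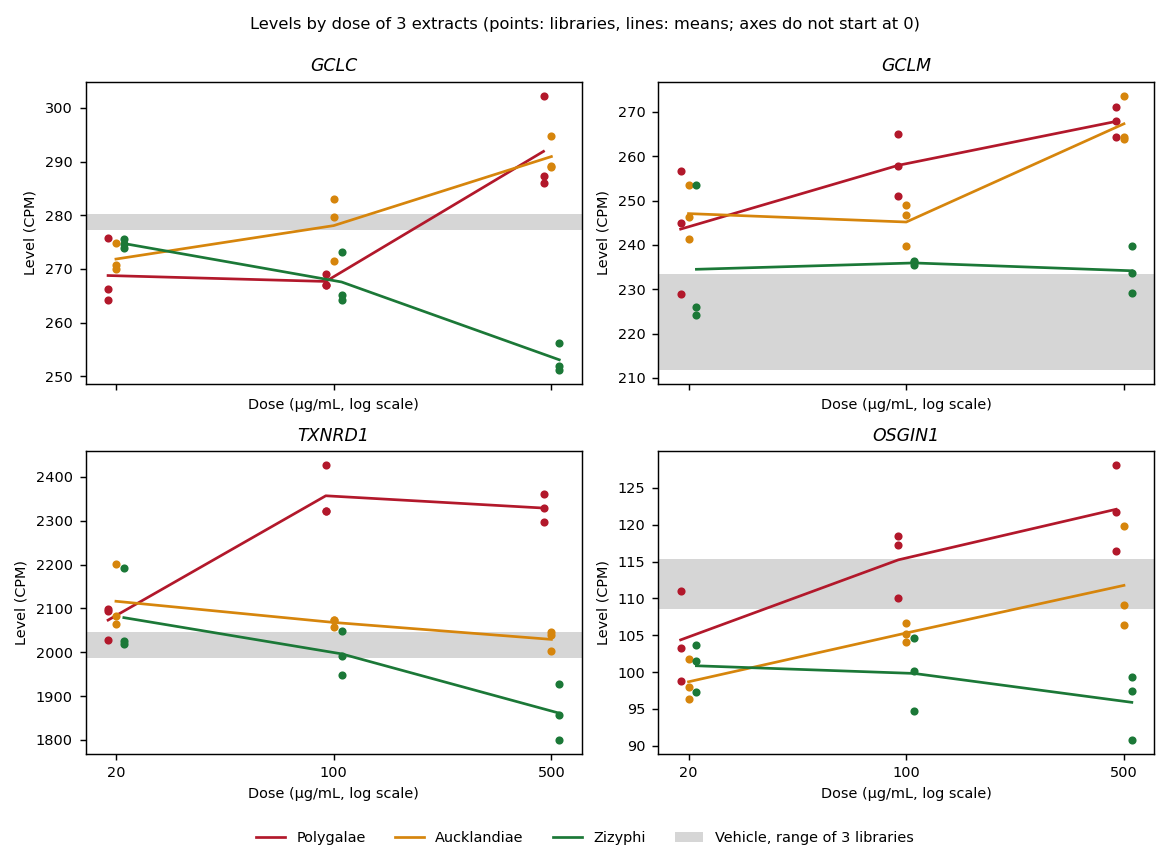
Level in CPM (vertical axes, not starting at 0) of GCLC, GCLM, TXNRD1 and OSGIN1 against dose in µg/mL (log scale) for Polygalae, Aucklandiae and Zizyphi. Points are libraries, lines join means of 3, and the grey band is the range of the 3 Vehicle libraries; TXNRD1 averaged 2357 CPM in Polygalae 100 µg/mL and 1861 CPM in Zizyphi 500 µg/mL.

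Part of the set was lower after Zizyphi at 500 µg/mL. In these cells 3 of the 9 genes fell relative to Vehicle and none rose, where 1.81% of all tested genes were called, 0.915% as lower. GCLC had 252, 251 and 256 CPM in Zizyphi 500 µg/mL libraries, against 277, 280 and 279 CPM in Vehicle libraries (log2 fold change -0.14 ± 0.03, adjusted p = 0.00078). GSR had 392, 387 and 392 CPM in Zizyphi 500 µg/mL libraries, against 411, 428 and 423 CPM in Vehicle libraries (-0.11 ± 0.03, adjusted p = 0.0212). OSGIN1 had 90.8, 99.4 and 97.5 CPM in Zizyphi 500 µg/mL libraries, against 115, 115 and 109 CPM in Vehicle libraries (-0.24 ± 0.05, adjusted p = 0.0029). All 3 genes had every Zizyphi library below every Vehicle library.

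TXNRD1 and SRXN1 lay just short of the threshold in Zizyphi 500 µg/mL cells. TXNRD1 had 1927, 1800 and 1856 CPM in Zizyphi 500 µg/mL libraries, against 1988, 2032 and 2047 CPM in Vehicle libraries (log2 fold change -0.12 ± 0.03, adjusted p = 0.0504). SRXN1 had 442, 427 and 428 CPM in Zizyphi 500 µg/mL libraries, against 464, 471 and 472 CPM in Vehicle libraries (-0.12 ± 0.03, adjusted p = 0.0575). Neither overlapped Vehicle, and DESeq2 called both (adjusted p = 0.0255 for TXNRD1 and 0.0341 for SRXN1), which made 5 genes lower. The share of all tested genes called by DESeq2 was not computed. TXNRD1 also passed in edgeR without the first Zizyphi 500 µg/mL library (adjusted p = 0.0489). The GSR call was lost without the second (0.146) or the third (0.0782) Vehicle library or any 1 of the 3 Zizyphi 500 µg/mL libraries (0.0665, 0.0911 and 0.066), and the OSGIN1 call without the first Zizyphi 500 µg/mL library (0.0599). With no filter on low counts, the GCLC (0.0514) and GSR (0.255) calls were lost.

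The mean of OSGIN1 was below that of Vehicle in most extract groups. The 3 Longan groups, of the same library set as Zizyphi, had 99.6 to 108 CPM, against 109 to 115 CPM in Vehicle libraries. Groups of other sets had means as low as 98.7 CPM (Aucklandiae 20 µg/mL), and the part of the library set was not tested. Against the mean of the 6 groups at 20 µg/mL, OSGIN1 was lower by a log2 fold change of -0.13 that did not pass (adjusted p = 0.0744). Within the 9 Zizyphi libraries, 2 genes fell with dose (0.351% of all tested genes were called, 0.219% as lower): TXNRD1 by -0.08 ± 0.02 per 5-fold step (adjusted p = 0.0198) and GCLC by -0.06 ± 0.01 (adjusted p = 0.042). GCLC had 274, 276 and 275 CPM at 20 µg/mL, 265, 273 and 264 CPM at 100 µg/mL and 252, 251 and 256 CPM at 500 µg/mL, with no overlap between doses. The TXNRD1 slope was lost without the second (adjusted p = 0.183) or the third (0.151) Zizyphi 500 µg/mL library or the third Zizyphi 20 µg/mL library (0.136). The GCLC slope was lost without any 1 of 8 libraries (adjusted p = 0.0568 to 0.198). SRXN1, at -0.07 ± 0.02 per step (adjusted p = 0.0632), passed without the first Zizyphi 20 µg/mL library (0.0243) or the third Zizyphi 100 µg/mL library (0.0157). At 20 and 100 µg/mL, 0 of the 9 genes passed against Vehicle in edgeR (0.363% and 0.599% of all tested genes were called). Unadjusted p was under 0.05 for 1 and 2 of them, and DESeq2 called 0 at either dose.

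With the 3 remaining extracts none of the 9 genes passed the threshold at any dose in edgeR. For Schisandrae, 0.196%, 1.4% and 0.478% of all tested genes were called at 20, 100 and 500 µg/mL, and 1, 3 and 1 of the 9 genes had an unadjusted p under 0.05. For Longan, 0.0173%, 0.132% and 0.104% of all tested genes were called, and 2 of the 9 had an unadjusted p under 0.05 at each dose. For Liriopis, 0.0864%, 0.00576% and 0.00576% were called, and 1, 1 and 2 of the 9 had an unadjusted p under 0.05. DESeq2 called 0 in each of these 9 comparisons. Few genes of any kind were called in these groups, so the absence of calls says little about the 9 genes in particular.

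Single libraries moved some of these values. TXN had 463, 466 and 550 CPM in Schisandrae 100 µg/mL libraries, against 433, 470 and 438 CPM in Vehicle libraries, with the third library apart. TXNRD1 had 2011, 1974 and 1776 CPM in Liriopis 500 µg/mL libraries, against 1988, 2032 and 2047 CPM in Vehicle libraries, and PRDX1 had 940, 911 and 762 CPM there, against 857, 865 and 857 CPM. The third Liriopis library, 1 of the 2 that stood apart, was the lowest for both. Without those 2 libraries GCLM passed in Schisandrae 500 µg/mL (log2 fold change 0.15, adjusted p = 0.0171) and in Longan 500 µg/mL cells (0.13, adjusted p = 0.0435), although neither group held such a library.

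Dose slopes called none of the 9 genes in Schisandrae (0.0403% of all tested genes), Longan (0.0345%) or Liriopis (0.0461%) by edgeR. Unadjusted p was under 0.05 for 2, 0 and 1 of them, and 0 were called by DESeq2 in each. Over the 12 comparisons at 20 and 100 µg/mL, 9 of 108 tests were called, 8 higher and 1 lower, where 2.73% of all tests over these comparisons were called. The count was 5 without the first Vehicle library and 14, 9 higher and 5 lower, in fits of only the libraries compared. The share of all tests called in these alternatives was not computed.

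The regulators of NRF2, 12 genes, did not move as 1 group. In Wortmannin cells 7 fell and 2 rose, where 19.4% of all tested genes fell and 18% rose. NFE2L2 itself fell (log2 fold change -0.14 ± 0.03, adjusted p = 0.00043), as did CUL3 (-0.17 ± 0.03), the small MAF partner MAFK (-0.35 ± 0.04) and NFE2L1, an NRF2 relative (-0.19 ± 0.04). BACH1, a repressor that competes for the same elements, rose (0.25 ± 0.06). In Polygalae 500 µg/mL cells 5 rose and 1 fell, where 10.4% of all tested genes rose and 9.48% fell. SQSTM1, an autophagy receptor that binds KEAP1, rose by 1.11 ± 0.03 (adjusted p = 1e-35), and MAFG (0.29 ± 0.04), MAFF (0.42 ± 0.11) and BACH1 (0.41 ± 0.07) rose while MAFK fell (-0.12 ± 0.04). SQSTM1 rose also with Polygalae dose, by 0.40 ± 0.04 per step. In Aucklandiae 500 µg/mL cells SQSTM1 (0.20 ± 0.03) and KEAP1 (0.17 ± 0.04) rose, and NFE2L2 (-0.18 ± 0.03) and NFE2L1 (-0.13 ± 0.04) fell. In Zizyphi 500 µg/mL cells NFE2L2 fell (-0.17 ± 0.03) and SQSTM1 rose (0.13 ± 0.03).

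Of the 8 genes of cystine uptake and NADPH supply, which feed glutathione synthesis and the 2 reductases, 5 fell in Wortmannin cells and none rose (19.4% and 18% of all tested genes). SLC3A2, the heavy chain of the cystine transporter, fell by 0.62 on the log2 scale (SE 0.05, adjusted p = 1e-15) and malic enzyme ME1 by 0.33 (SE 0.04). SLC7A11, the other chain of that transporter, was not among the 5 called. In Polygalae 500 µg/mL cells 1 rose and 3 fell (10.4% and 9.48% of all tested genes). Isocitrate dehydrogenase IDH1 rose (0.25 ± 0.03), and TKT (-0.14 ± 0.03) and PGD (-0.10 ± 0.03), both of the pentose phosphate pathway, were among those that fell. In Aucklandiae 500 µg/mL cells ME1 rose (0.17 ± 0.04) and no other passed.

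Of 22 genes of glutathione use and breakdown, 8 fell and 2 rose in Wortmannin cells, where 37.4% of all tested genes were called, 19.4% as lower. CHAC1, which degrades glutathione, had the largest change there, a log2 fold change of -2.49 ± 0.14 (edgeR adjusted p = 6.6e-22). Its level was low, with means of 1.14 CPM in Wortmannin, 3.39 CPM in Polygalae 500 µg/mL and 6.46 CPM in Vehicle cells. The glutaredoxin GLRX3 fell by 0.50 (SE 0.05). OPLAH, which returns glutamate from the breakdown product oxoproline, rose (0.47 ± 0.08). In Polygalae 500 µg/mL cells 6 rose and 3 fell (10.4% and 9.48% of all tested genes), among them CHAC1 (-0.92 ± 0.12) and the glutathione peroxidase GPX2 (-0.36 ± 0.08) as lower and OPLAH (0.33 ± 0.08) and GLRX (0.22 ± 0.06) as higher. CHAC1 was thus lower in both groups, in which GCLM had moved in opposite directions. GPX1, a selenium-containing peroxidase, was lower in Aucklandiae (-0.58 ± 0.07), Schisandrae (-0.33 ± 0.07) and Zizyphi (-0.31 ± 0.07) at 500 µg/mL.

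Of 18 tested thioredoxin and peroxiredoxin relatives (TXNIP did not pass the filter on low counts), 6 fell and 4 rose in Wortmannin cells, where 37.4% of all tested genes were called, 19.4% as lower. In Polygalae 500 µg/mL cells 5 fell and 1 rose, where 19.9% of all tested genes were called, 9.48% as lower. SESN2, a stress-induced sestrin, fell in both (-0.47 ± 0.06 in Wortmannin and -0.69 ± 0.07 in Polygalae), as did PRDX6 (-0.22 ± 0.04 and -0.15 ± 0.04). The methionine sulfoxide reductase MSRB3 rose in Wortmannin cells (0.23 ± 0.04) and fell in Polygalae 500 µg/mL cells (-0.12 ± 0.04).

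Of 20 other NRF2 targets, 10 fell and 2 rose in Wortmannin cells, where 19.4% of all tested genes fell and 18% rose. Haem oxygenase HMOX1 (-0.72 ± 0.05), the ferritin light chain FTL (-0.54 ± 0.06) and NR0B1, a nuclear receptor (-0.55 ± 0.06), fell, and the transporter ABCC3 rose (0.74 ± 0.05). In Polygalae 500 µg/mL cells 5 rose and 3 fell (10.4% and 9.48% of all tested genes), with HMOX1 (0.73 ± 0.04), NR0B1 (0.36 ± 0.05), FTL (0.35 ± 0.06) and the ferritin heavy chain FTH1 (0.32 ± 0.06) higher and the aldehyde dehydrogenase ALDH3A1 (-0.51 ± 0.07) lower. The median log2 fold change of these 20 in Polygalae 500 µg/mL cells was -0.04, of opposite sign to the balance of the calls. HMOX1 rose in Aucklandiae (0.38 ± 0.04) and Schisandrae (0.31 ± 0.04) at 500 µg/mL, and ALDH3A1 fell in Zizyphi (-0.41 ± 0.07).

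**Figure D5:**
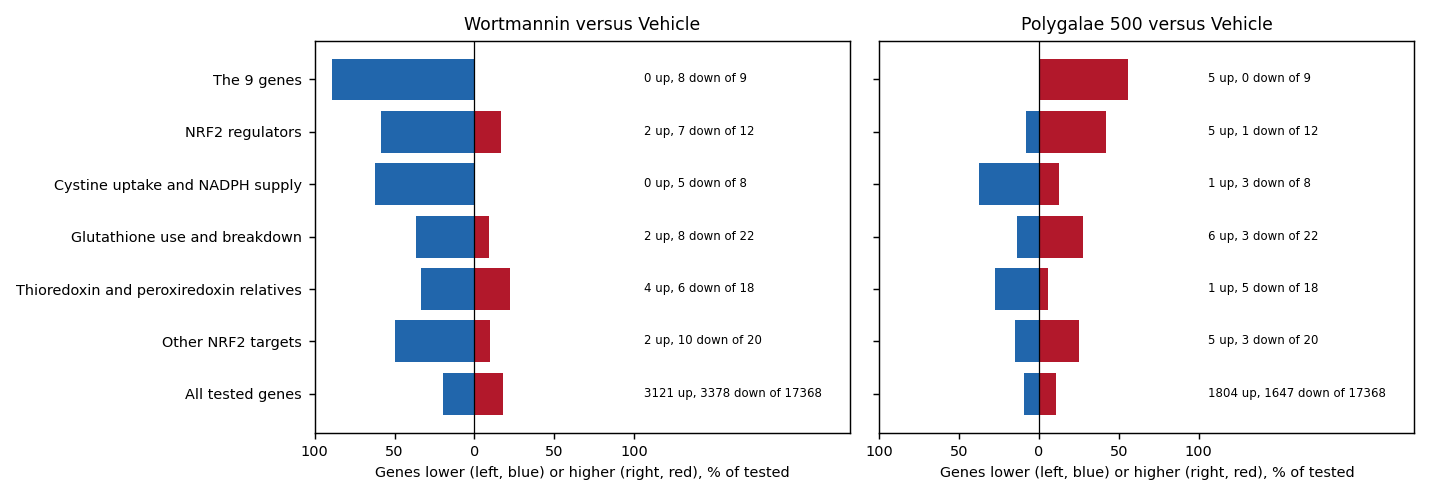
Share of tested genes (horizontal axis, %) that were lower (blue, left) or higher (red, right) than Vehicle at adjusted p under 0.05 in Wortmannin and Polygalae 500 µg/mL cells, for the 9 genes, the 5 related lists and all tested genes. The 9 genes have 8 lower under Wortmannin and 5 higher under Polygalae, with no call in the other direction.

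The group means of the 9 genes rose and fell together to differing degrees. Over the 20 groups the 36 pairs had a median Pearson r of 0.72 (0.25 to 0.93), and without Wortmannin the median was 0.51 (-0.10 to 0.81). These values describe group means that share libraries and scaling, and are no test. Among 9523 genes with a mean of at least 10 CPM, the genes with the most similar profile to GCLC were CYP4F11 (r = 0.93), GSR (0.93) and XPOT (0.92), with r of 0.80, 0.70 and 0.58 when Wortmannin was left out. GSR was nearest to GAS2L3 (0.95), SMYD5 (0.94) and NR0B1 (0.94), and OSGIN1 to NEIL3 (0.91), NR0B1 (0.91) and GSR (0.91), with r of 0.78 to 0.79 and 0.74 to 0.78 without Wortmannin. TXN was nearest to PRPSAP1 (0.96), CKS2 (0.96) and CCNG1 (0.94), TXNRD1 to TOMM20 (0.91), CPEB4 (0.91) and ACSL3 (0.90), and PRDX1 to SLC25A5, AOPEP and CHCHD2 (0.95 each), and these 9 values were 0.89 to 0.94 without Wortmannin. GCLM was nearest to POLR3A, CHPT1 and CCNG1 (0.90 to 0.91), SRXN1 to PSMD14, ETF1 and CUTC (0.95 each) and GSS to PEBP1, SNRPE and COX5B (0.87 to 0.88), and these 9 values were 0.77 to 0.85 without Wortmannin. The 3 nearest profiles of GCLC and OSGIN1 thus included another of the 9 genes, GSR, and those of the other 7 did not.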

How the data were processed

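The authors deposited 1 table of expected counts per gene and library. Per the submitters' processing notes it was made with FastQC 0.11.9, Trim Galore 0.6.5, STAR 2.7.3a and RSEM 1.3.3 on GRCh38 (hg38). The series text says that samples with too little RNA were left out by the authors. Expected counts were rounded to whole numbers (10.7% were not whole). Symbols were matched for 41209 genes from a gene table and for 15846 from GENCODE release 29, with 3620 unmatched.

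Genes passing edgeR's filterByExpr over the 20 groups (17368) were scaled by TMM (factors 0.965 to 1.05) and tested with edgeR 4.0.16 (limma 3.58.1, R 4.3.3): robust quasi-likelihood fits, 1 mean per group over 60 libraries for comparisons between groups, and 9 libraries per extract for dose slopes, coded 0, 1 and 2. Tests were two-sided, with Benjamini-Hochberg adjustment over all tested genes. CPM values are TMM-scaled. DESeq2 1.42.0 was an alternative. Counts were also simulated for all 60 libraries, with 1 mean per gene over all groups and known changes in the Wortmannin group alone. Changes of log2 0.25 were set in 100 of 17368 genes and of 0.5 in another 100, drawn from genes above a set mean CPM. Against Vehicle, 66 and 96 of these were recovered, and 8.47% of calls were false. In the real comparison 37.4% of tested genes were called, so these shares need not hold for it.

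The 9 genes, the 5 related lists and the markers were chosen with earlier results of these data known. The 9 genes were tested in every comparison, and the genes named from a list as changed are among its 5 of smallest adjusted p that were called. Not all of these are named, and 1 is not reported here. Replicate numbers were not taken to pair the samples. Likeness of profiles was Pearson's r over group means of log2 CPM, with the 3 nearest genes named.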

Additional observations from a re-analysis of the deposited data

How the results depend on the processing

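Counts of the 9 genes called (8 for Wortmannin, 5 for Polygalae 500 µg/mL, 1 for Aucklandiae 500 µg/mL, 3 for Zizyphi 500 µg/mL, 0 for each of Schisandrae, Longan and Liriopis 500 µg/mL) depended on the call rule. Requiring a fold of at least 1.2 as well left 5, 1, 0 and 0 in the first 4 and 1 of 9 calls over the 12 comparisons at 20 and 100 µg/mL. With the mean of the groups at 20 µg/mL in place of Vehicle, Aucklandiae had 3 calls, and Schisandrae and Liriopis had 1 each. Fitting only the libraries compared gave 2 for Aucklandiae, 5 for Zizyphi, 2 for Longan and 14 over the 12 lower-dose comparisons. DESeq2 gave 5 for Zizyphi, 4 for the Polygalae slope and 2 for the Aucklandiae slope. With no filter on low counts Zizyphi had 1 call and the Aucklandiae slope 2. With all 60 libraries in the slope fit, the Polygalae slope had 6 and the Aucklandiae slope 2. Leaving out the 2 libraries that stood apart, a setting chosen after seeing the data, gave 5 for Zizyphi, 1 each for Schisandrae and Longan, and 4 for the Polygalae slope. The share of all tested genes called was computed for the main setting only, and the cause of these shifts was not tested. RLE scaling moved none of the 243 results (9 genes in 27 comparisons) across the threshold, and no alternative that was run turned the direction of a call.

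Leaving out 1 library at a time gave 7 to 8 calls for Wortmannin, 4 to 6 for Polygalae 500 µg/mL, 1 to 1 for Aucklandiae 500 µg/mL, 2 to 3 for Zizyphi 500 µg/mL and 0 to 0 for Schisandrae, Longan and Liriopis 500 µg/mL. It gave 5 to 12 over the lower doses, 0 to 4 for the Polygalae slope, 0 to 1 for the Aucklandiae slope, 0 to 3 for the other 4 slopes, 8 to 9 for Wortmannin against Polygalae and 2 to 3 for Polygalae against Aucklandiae.

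Deviations of libraries with the same replicate number had a median r of 0.00199 over 570 pairs, against -0.00149 over 1140 pairs with different numbers. Within a library set, 19 of 135 same-number pairs had r over 0.1, against 11 of 270 pairs with different numbers. The medians there were 0.00526 and -0.00486. Some shared deviation within sets is thus not excluded, and the numbers were not taken as pairing. With the replicate block the Polygalae slope had 1 call in place of 2 (PRDX1, adjusted p = 0.0537), SRXN1 passed in the Zizyphi slope (adjusted p = 0.0304), and the other 241 of the 243 results stayed on their side of the threshold.

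With 3 libraries a group, 66% of changes of log2 0.25 were found in a simulation in which few genes changed. The share for genes with the level and spread of these 9 was not tested. Among these 9, smaller changes passed in edgeR for GSR in Polygalae 500 µg/mL cells (0.098, adjusted p = 0.0055) and TXNRD1 in Wortmannin cells (-0.097, adjusted p = 0.0202). OSGIN1 in Polygalae 500 µg/mL cells (0.113, adjusted p = 0.0892) did not pass. Genes that did not pass may still differ. Most changes of these 9 genes were of log2 0.25 or smaller in size.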
